A study of Mus musculus with 4 samples.

Results

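The Hox genes of the 4 mouse clusters were followed through molar development. They were taken as every probe, other than control spots, whose gene name on the array was Hoxa, Hoxb, Hoxc or Hoxd followed by a number. This gave 49 of 41174 probes, for 38 of 27670 genes: 11 in Hoxa, 10 in Hoxb, 8 in Hoxc and 9 in Hoxd. No probe carried the name Hoxc11. Whole first molar germs were dissected from the mandible of C57BL/6 embryos at E11, E12, E16 and E18, and at E14, which served as the common comparison. The labels name no mutation or treatment, each stage is a single pool of germs. How many germs or litters went into a pool is not stated. On each of 4 two-colour arrays, RNA of E11, E12, E16 or E18 was labelled with Cy5 and RNA of E14 with Cy3, with no dye swap. E14 was therefore read 4 times, which measures technical spread, and no stage has a biological replicate. In such whole tissue, fewer cells of a type and less RNA per cell cannot be told apart.

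Hox genes encode homeodomain transcription factors that give cells their position along the head-to-tail axis. Within a cluster the genes lie in the order in which they are switched on, and genes of the same number in different clusters are paralogues. Low-numbered (3′) genes are active as far forward as the hindbrain and the pharyngeal arches behind the jaw, and high-numbered (5′) genes in the trunk, limbs and tail. The neural crest that fills the first pharyngeal arch, from which the mandible and the tooth mesenchyme arise, is known for its lack of Hox expression. Hox proteins bind DNA together with Pbx, Meis and Pknox homeodomain proteins.

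The promoters of 3 paralogues of group 4 are shown because the genes differed in detection: Hoxc4 was above background at every stage, while Hoxb4 and Hoxd4 were above background at none. Each is 300 bases of the coding strand around the annotated gene start, from RefSeq (GRCm38.p6), with CpG dinucleotides, the sites of DNA methylation, in capitals. The windows are chr15:103034145-103034444 for Hoxc4, chr11:96318017-96318316 for Hoxb4 and chr2:74721728-74722027 for Hoxd4, all on the plus strand.
Hoxc4: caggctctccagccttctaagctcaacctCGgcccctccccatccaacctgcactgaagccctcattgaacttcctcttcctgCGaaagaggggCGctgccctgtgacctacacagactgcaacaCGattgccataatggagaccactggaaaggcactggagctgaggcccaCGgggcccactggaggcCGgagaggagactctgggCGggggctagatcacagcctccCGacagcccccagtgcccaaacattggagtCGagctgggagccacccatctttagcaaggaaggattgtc
Hoxb4: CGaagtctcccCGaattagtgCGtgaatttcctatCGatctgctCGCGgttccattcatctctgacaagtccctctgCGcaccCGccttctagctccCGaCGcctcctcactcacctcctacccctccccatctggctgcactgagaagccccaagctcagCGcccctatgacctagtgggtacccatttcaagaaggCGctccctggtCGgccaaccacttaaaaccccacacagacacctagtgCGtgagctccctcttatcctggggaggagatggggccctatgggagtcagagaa
Hoxd4: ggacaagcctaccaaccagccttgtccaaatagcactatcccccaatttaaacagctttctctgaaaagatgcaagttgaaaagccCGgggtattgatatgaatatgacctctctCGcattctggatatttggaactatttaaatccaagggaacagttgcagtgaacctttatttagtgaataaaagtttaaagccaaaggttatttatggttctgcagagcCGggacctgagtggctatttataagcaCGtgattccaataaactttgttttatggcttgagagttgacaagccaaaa
These windows hold 9 CpG in Hoxc4, 14 in Hoxb4 and 4 in Hoxd4. RefSeq promoters were found for 22 of the 38 genes, as 24 windows with a median of 14.5 CpG, against a median of 7 in all 32851 promoters of the same length. The letters TGATNNAT, a form of the shared Pbx and Hox motif, were searched on both strands and occurred in 16.7% of the Hox windows and 8.85% of all promoters. They were in none of the 3 windows shown. Searched on both strands as well, CCAAT, the NF-Y box, was in 62.5% of Hox windows and 37.4% of all promoters. TATAAA, on either strand, was in 16.7% of Hox windows and 13.6% of all promoters. Hoxc4 had 1 CCAAT, on the strand opposite to the one shown, and no TATAAA. Hoxb4 had neither. Hoxd4 had 2 CCAAT on the strand shown and 1 TATAAA on the opposite strand. Methylation and factor binding were not measured here.

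Most Hox genes were not above background in the molar germ at any stage. A gene counted as above background when a probe of it was well above background by the scanner software's own flag, in Cy5 for E11, E12, E16 and E18, and in Cy3 on at least 2 of 4 arrays for E14. By this rule 5 of 38 Hox genes (13.2%) were above background at E11, 4 at E12, 4 at E14, 5 (13.2%) at E16 and 5 (13.2%) at E18. Over all genes of the array the shares were 55.3% at E11, 58.5% at E12, 56.2% at E14, 57.9% at E16 and 53.5% at E18. In all, 7 Hox genes (18.4%) were above background at some stage, against 63.0% of all genes, and 4 of 38 at every stage, against 49.9%. A further 3 Hox genes (7.89%) passed at exactly 1 stage, against 3.94% of all genes.

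The genes above background at every stage were Hoxa3, Hoxb3, Hoxb6 and Hoxc4. Hoxc6 passed at E11 alone, Hoxd8 at E16 alone and Hoxb2 at E18 alone. By cluster, 1 of 11 Hoxa, 3 of 10 Hoxb, 2 of 8 Hoxc and 1 of 9 Hoxd genes passed at some stage. By position in the cluster, 4 of 12 genes of paralogue groups 1 to 4 passed at some stage, 3 of 11 genes of groups 5 to 8, and 0 of 15 genes of groups 9 to 13. Group 3 had Hoxa3 and Hoxb3 above background and Hoxd3 below, group 4 had Hoxc4 out of 4 genes, and group 6 had Hoxb6 and Hoxc6 but not Hoxa6.

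**Figure D1:**
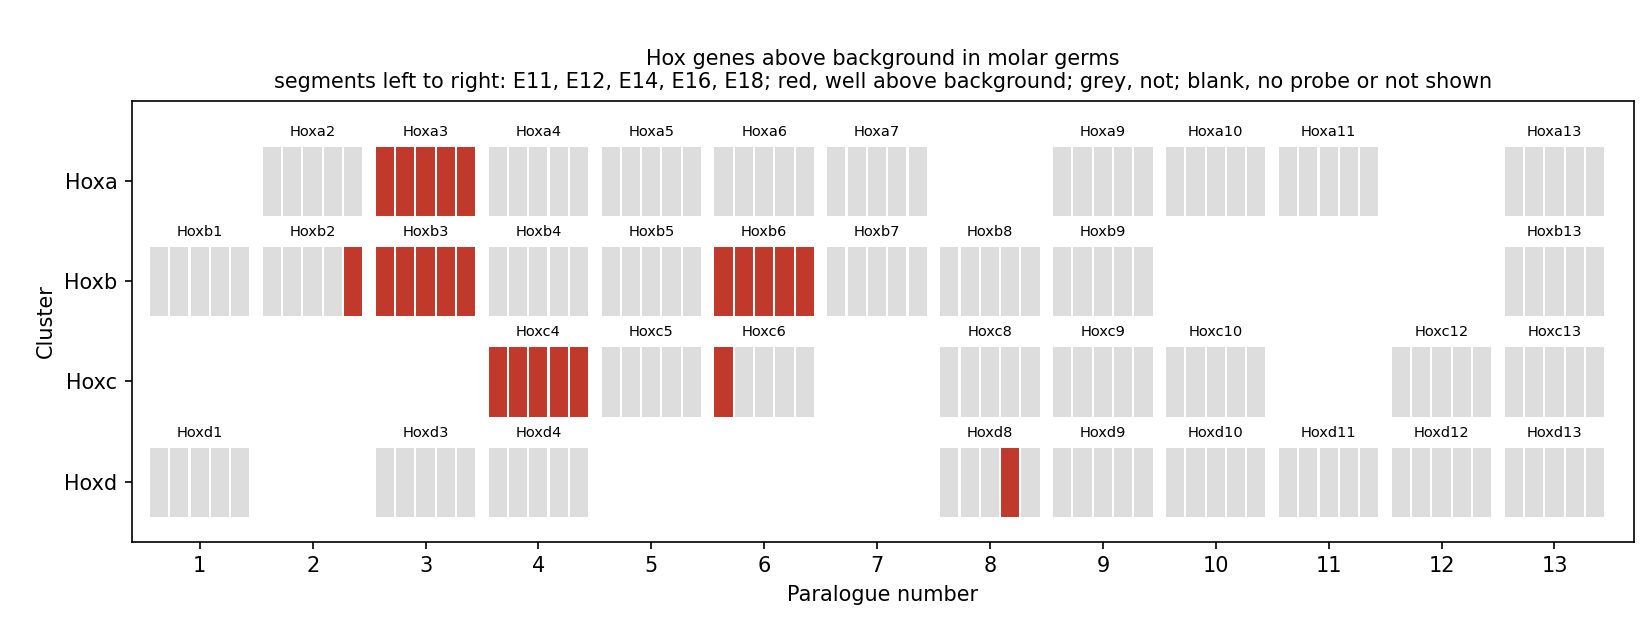
Detection of Hox genes by cluster (rows) and paralogue number (columns). Each gene has 5 segments for E11, E12, E14, E16 and E18, left to right, red where the gene was well above background and grey where it was not, and a blank place has no probe or is not shown. Hoxa3, Hoxb3, Hoxb6 and Hoxc4 are red throughout, and no gene numbered 9 to 13 is red at any stage.

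The other 31 genes were below that limit at every stage. In Hoxa these included Hoxa2, Hoxa4, Hoxa5, Hoxa6, Hoxa7, Hoxa9, Hoxa10, Hoxa11 and Hoxa13. In Hoxb they were Hoxb1, Hoxb4, Hoxb5, Hoxb7, Hoxb8, Hoxb9 and Hoxb13. The Hoxb1 probe has 10 spots on each array. At E18, 1 of the 10 was well above background in both dyes and was left out as an outlier. The Hoxc genes were Hoxc5, Hoxc8, Hoxc9, Hoxc10, Hoxc12 and Hoxc13, and the Hoxd genes were Hoxd1, Hoxd3, Hoxd4, Hoxd9, Hoxd10, Hoxd11, Hoxd12 and Hoxd13. They include Hoxa2, whose product sets second-arch identity, and the number 9 to 13 genes that pattern limb and tail. A transcript below this limit can still be present at a low level. A weaker flag of the software, signal positive and significantly over local background, was met in none of 8 channels (4 arrays, both dyes) by 12 of the 31 genes, in 1 to 5 channels by 15 and in at least 6 by 4 genes. Those 4 were Hoxa6, Hoxa7, Hoxa9 and Hoxd4.

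The limit was close for some probes. On the E11 array the lowest Cy5 mean signal called above background was 57.4 scanner units (Hoxc6) and the highest not called was 51.5 (Hoxa6). At E12 the pair was 99.1 (Hoxa3) and 49.6 (Hoxa7), at E16 51.2 (Hoxd8) and 47.9 (Hoxd4), and at E18 46.6 (Hoxb2) and 40.7 (Hoxd4). Each array also carried 153 negative control spots, of which 1 at E11 and 0 at E12, then 2 at E16 and 0 at E18 were well above background in Cy5. The 99th percentile of these spots in Cy5 was 46.7 at E11 and 47.9 at E12, then 54.7 at E16 and 42.1 at E18, so the Hoxd8 signal at E16 lay below it and those of Hoxc6 at E11 and Hoxb2 at E18 lay above it. Probes that were not called, such as Hoxa6 at E11 and Hoxa7 at E12, also lay above it. The brightest negative control spot in Cy5 was at 120.8, 49.9, 72.2 and 45.7 units at E11, E12, E16 and E18. At E11 only 2 Hox probes lay above that spot.

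**Figure D2:**
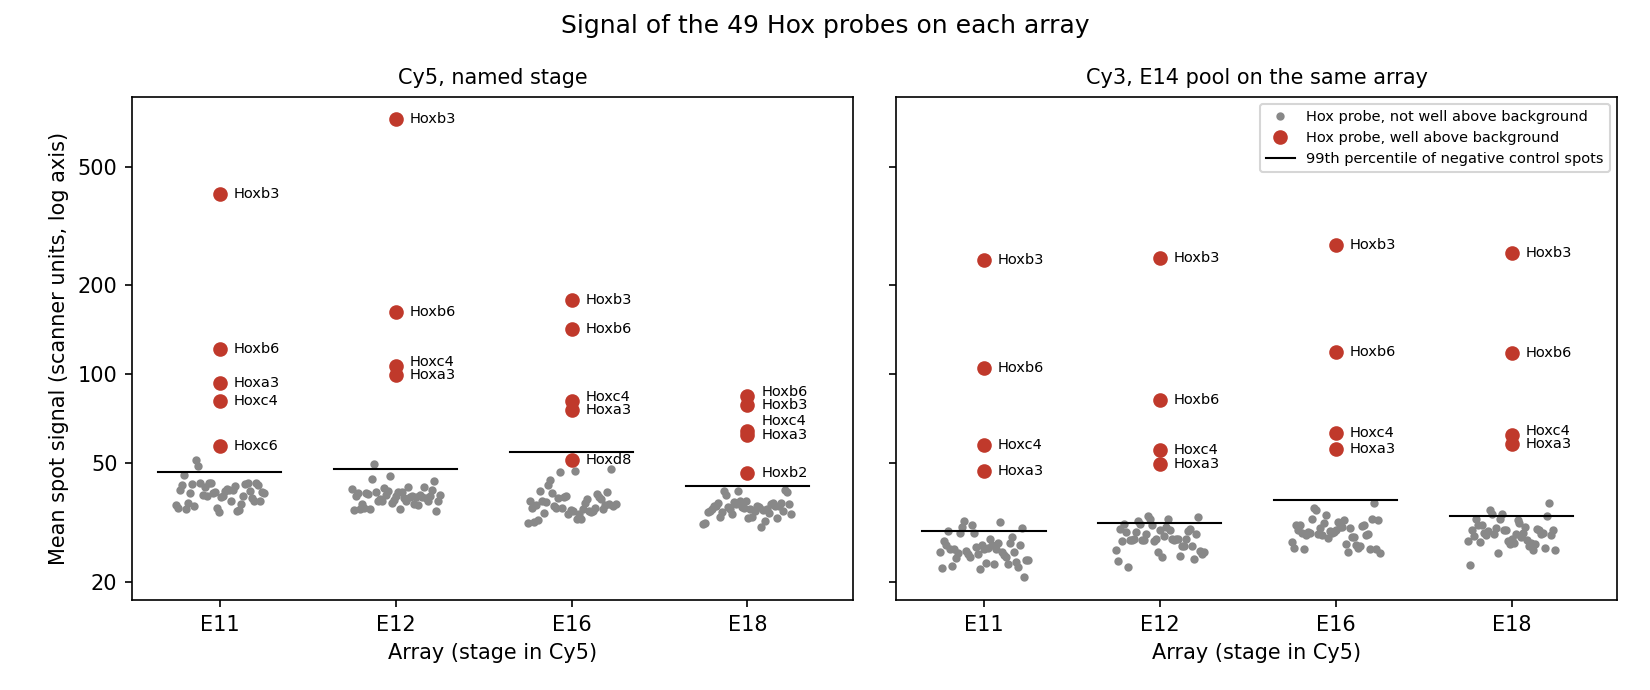
Mean spot signal (scanner units, log axis) of the 49 Hox probes on each array, in Cy5 for the named stage (left) and in Cy3 for E14 on the same array (right). Red points were well above background and are named, grey points were not, and black lines mark the 99th percentile of 153 negative control spots. Hoxb3 in Cy5 is at 404 and 721 units at E11 and E12 and at 177 and 78.6 at E16 and E18.

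Hoxb3 changed most among the Hox genes above background at every stage. Hoxb3, a group 3 gene of hindbrain and posterior pharyngeal arch patterning, had a Cy5 mean signal of 404 at E11 and 721 at E12, then 177 at E16 and 78.6 at E18, against a Cy3 signal for E14 of 242, 245, 273 and 257 units on those arrays. E14 varied little between arrays (SD 0.06 on the log2 scale, n = 4 technical readings), while the Cy5 signal at E16 and E18 lay below both earlier stages. The dyes differ in overall brightness, so the ratio was taken after intensity-dependent normalization. On the log2 scale it was -0.29 at E11 and 0.08 at E12, then -1.55 at E16 and -1.84 at E18, which is 2.93-fold lower at E16 and 3.59-fold lower at E18 than at E14.

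Of the 4 Hox genes above background at every stage, Hoxb3 was the only one at least 2-fold from E14. Among all 17400 genes with a measurable probe, 1.70% were at least 2-fold lower at E16 and 3.84% at E18, and 2.01% and 3.82% were higher. None of the 4 was 2-fold from E14 at E11, where 4.86% of genes were lower and 1.60% higher, or at E12, where 2.63% were lower and 0.328% higher. With the scanner's own log ratios, which compress dim genes less, the count over all 7 Hox genes above background at some stage was 2 at E11 and 1 at E12, then 4 at E16 and 4 at E18. At E11 and E12 only Hoxb2 and Hoxc6 were counted, and at E16 and E18 Hoxb2 and Hoxd8 were among those counted. These 3 genes were near background. The shares over all genes are for the main normalization, and none is given for the scanner's ratios. With each array centred on the median of all its non-control spots instead, the median of the 17400 measured genes stood at 0.40, 0.64, 0.57 and 0.17 at E11, E12, E16 and E18. Hoxb3 then had log2 ratios of 0.40, 1.05, -0.87 and -1.60. Its sign at E11 therefore differs between the scalings, but with median centring Hoxb3 at E11 lay at the median of the measured genes (0.40). At E16 and E18 Hoxb3 is below E14 in both.

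Across embryonic days Hoxb3 fell by 0.27 ± 0.05 log2 units per day (standard error; limma's moderated test of a linear trend over the 4 arrays, adjusted p = 0.0226 over 17400 genes). It was the only one called of the 4 Hox genes above background at every stage, and 2.63% of all genes tested fell and 6.25% rose. The arrays came from 2 slides, one holding E11 with E12 and the other E16 with E18. With slide as a block the Hoxb3 slope was -0.045 ± 0.17 per day (unadjusted p = 0.798 in limma), and 0 of 17400 genes were called by limma, with 3.30% at an unadjusted p under 0.05. Within slides Hoxb3 had a log2 ratio of 0.36 for E12 over E11 and -0.29 for E18 over E16. E16 over E12 was -1.62, a difference between slides, where slide and stage cannot be told apart. Without E11 the adjusted p was 0.0617 and without E12 it was 0.0565, both by limma.

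**Figure D3:**
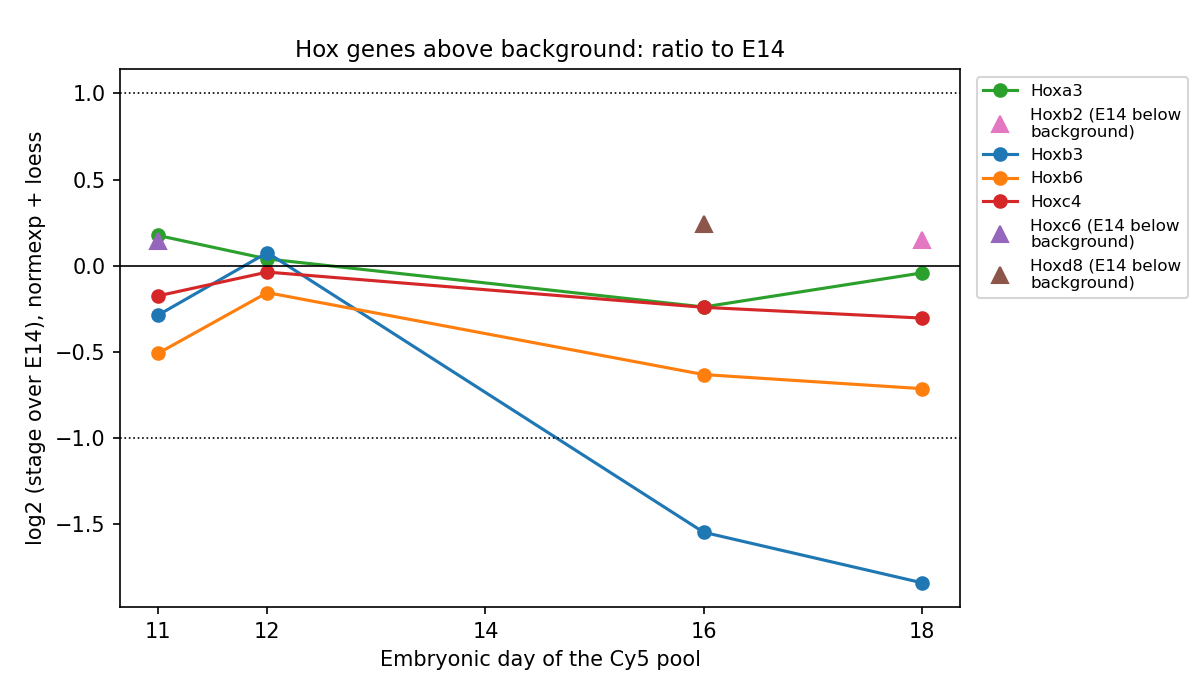
Log2 ratio of each stage over E14 for the 7 Hox genes above background at any stage, by embryonic day, 1 array per point with no replicate. Circles joined by lines are genes above background at every stage, triangles are genes above background at that stage alone (E14 below background), and dotted lines mark 2-fold. Hoxb3 lies below the lower dotted line at E16 (-1.55) and E18 (-1.84).

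The Hoxb3 probe, at chr11:96454839-96454898 (mm7, plus strand), also lists a Hoxd3 transcript among its accessions, so that its signal may hold both. The 2 Hoxd3 probes of the array were below background in every channel. It was the only one of the 49 probes that lists a second Hox gene.

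Hoxa3, needed for thymus, parathyroid and throat cartilage formation from the third arch, was above background throughout at one probe (chr6:52133666-52133725, mm7, minus strand). Its Cy5 signal was 93.3 at E11 and 99.1 at E12, then 75.6 at E16 and 62.6 at E18, against Cy3 signals for E14 of 47.3, 49.8, 56.2 and 58.0 on those arrays. The log2 ratios were 0.18, 0.04, -0.24 and -0.04, none of them near 2-fold, and the slope of -0.038 ± 0.023 per day did not pass (limma adjusted p = 0.344). A second Hoxa3 probe, 666 bases away, was below background in every channel, so the detection of Hoxa3 rests on 1 of 2 probes.

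Hoxc4, the gene of group 4 above background, had Cy5 signals of 80.9 at E11 and 106 at E12, then 81.3 at E16 and 64.2 at E18, against Cy3 signals for E14 of 57.6, 55.6, 63.5 and 62.5. Its probe lies at chr15:103022266-103022308 (mm7, plus strand), and the gene is known from cervical and thoracic patterning. Its log2 ratios were -0.18, -0.04, -0.24 and -0.30, and its slope of -0.028 ± 0.020 per day had an adjusted p of 0.415 (limma). All 4 ratios were within 1.24-fold of E14, with an E14 SD of 0.04 (log2, n = 4 technical readings). With median centring E12 was at 0.24, above E14 but below the median of all measured genes there (0.64).

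Hoxb6, a gene of thoracic patterning, had Cy5 signals of 121 at E11 and 161 at E12, then 142 at E16 and 84.6 at E18, against Cy3 signals for E14 of 104.8, 82.0, 119 and 118. Its log2 ratios were all below E14: -0.51, -0.16, -0.63 and -0.71. The 4 E14 readings themselves had an SD of 0.17 (log2, technical). With median centring the ratio at E12 was 0.35, above E14 but below the median of all measured genes there (0.64). In the scanner's own log ratio Hoxb6 was -1.06 at E16 and -1.32 at E18, past 2-fold. The slope was -0.054 ± 0.032 per day (limma adjusted p = 0.325). Its 2 probes disagreed: the one at chr11:96408006-96408065 (mm7), named by a GenBank entry and not a RefSeq transcript, was above background in every channel, and the RefSeq probe 2282 bases downstream was below background in every channel.

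The 3 genes seen at a single stage were near the limit, and E14 was not well above background for any of them. Hoxc6, a gene of thoracic patterning, had a Cy5 signal of 57.4 at E11 and 38.8 at E12, then 34.6 at E16 and 34.8 at E18. Its normalised log2 ratio of E11 over E14 was 0.14, and no bound is given. Hoxd8, a trunk-patterning gene, had 37.5, 34.5, 51.2 and 39.9 units at E11, E12, E16 and E18, with a bound of at least 1.07-fold for E16 over E14. Hoxb2, which acts in the fourth hindbrain segment, had 42.9, 41.4, 46.7 and 46.6 units. Its bound was at least 1.07-fold for E18 over E14. The Hoxb2 signal at E16 was no lower than at E18, though it was not flagged there. Both bounds use the only stage at which the flag picked the gene, so they do not show a difference between stages. The Hoxd8 signal at E16 also lay below the 99th percentile of negative control spots in Cy5 (54.7). No trend is read for these 3 genes, since all but 1 of their stages are near background.

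Of 11 genes with 2 probes, the calls differed between the probes in 3: Hoxa3, Hoxb6 and Hoxb2. The dimmer Hoxb2 probe lies on the minus strand, opposite to the other Hoxb probes. In the spans of the clusters there were 10 further probes, for antisense and unnamed transcripts such as Hoxaas2, Hoxaas3 and Hoxd3os1. Of these, 9 were below background on every array, and 1, for 9530018H14Rik, was above background in Cy5 at E18 and on 1 of 4 E14 arrays.

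The Hox cofactors were above background more often than the Hox genes. All 9 genes of the cofactor list were above background at E11, E12, E14 and E16, and 8 of 9 at E18, where Pknox2 was not. Over all genes of the array the share ran from 53.5% (E18) to 58.5% (E12). Of the 9 cofactors, 3 fell with embryonic day and 0 rose (limma, adjusted over 17400 genes), against 2.63% and 6.25% of all genes tested. Pbx2 fell by 0.25 ± 0.03 log2 units per day (limma adjusted p = 0.0077), Pknox2 by 0.14 ± 0.02 (adjusted p = 0.0173) and Meis2 by 0.30 ± 0.07 (adjusted p = 0.0432). Meis2 had log2 ratios of 0.19, 0.49, -0.38 and -2.02 at E11, E12, E16 and E18. The median slope of the 9 was -0.073 per day, against -0.002 over all genes. These calls are lost with slide as a block, as are all others.

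**Figure D4:**
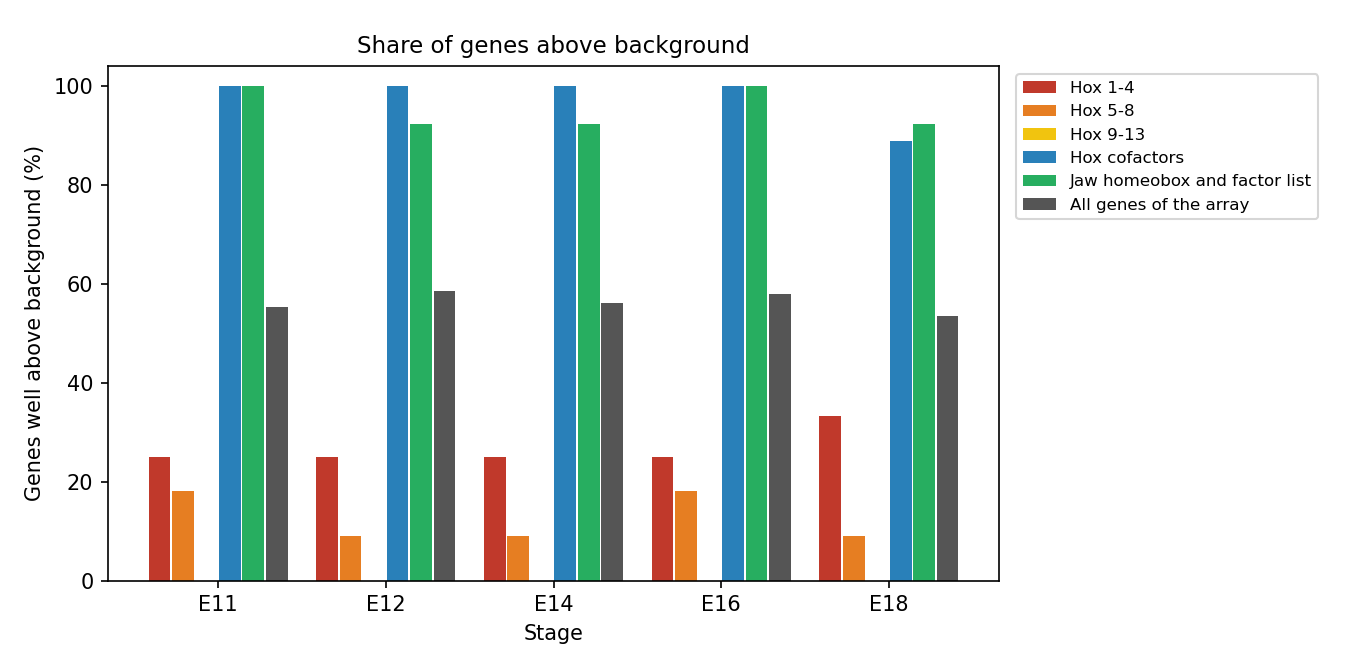
Share of genes well above background (%, bars from 0) at E11, E12, E14, E16 and E18 for Hox genes of paralogue groups 1 to 4, 5 to 8 and 9 to 13 (no bar where the share is 0), for Hox cofactors, for jaw transcription factors and for all genes of the array. The Hox 1 to 4 bars stand for 3 of 12 genes at E11, E12, E14 and E16 and 4 of 12 at E18, while cofactors are at 88.9% to 100%.

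Regulators of Hox genes were measured as well. The polycomb and trithorax proteins, which keep Hox clusters silent or active, were above background at every stage in 21 of 21 genes, against 49.9% of all genes. Of the 21, 1 fell (Cbx2, by 0.17 ± 0.03 log2 units per day, limma adjusted p = 0.0223) and 0 rose, against 2.63% and 6.25% of all genes tested. Among 16 genes on the array for Hox inducers and retinoic acid metabolism, 3 rose, 3 fell and 7 did not pass. Over all genes tested 6.25% rose and 2.63% fell. Cdx1, Cdx2 and Cdx4, direct activators of trunk Hox genes, were below background throughout. Aldh1a2, which makes retinoic acid, fell by 0.35 ± 0.03 log2 units per day (limma adjusted p = 0.0056), and Cyp26b1, which breaks it down, fell by 0.56 ± 0.12 (adjusted p = 0.0470). Aldh1a3, another retinoic acid synthase, rose by 0.61 ± 0.06 (adjusted p = 0.0078), and Cyp26a1 by 0.51 ± 0.06 (adjusted p = 0.0090).

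Genes next to the clusters were also counted: 13 of 17 were above background at some stage, against 63.0% of all genes. None of the 13 passed the trend test, and Evx1, Evx2, Skap1 and Ttll6 were below background throughout. Evx1 and Evx2 are homeobox genes at the 5′ ends of Hoxa and Hoxd. Of the 6 ParaHox genes, the sister cluster to Hox, Gsx1 alone was above background. The first-arch transcription factors known from the jaw, such as Msx1, Pax9, Barx1 and Lhx8, were above background at every stage in 12 of 13 genes on the array, against 49.9% of all genes. Of the 13, 8 fell and 2 rose, against 2.63% and 6.25% of all genes tested.

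Markers of tissues that carry Hox expression elsewhere were also looked at. For comparison, 55.3%, 58.5%, 56.2%, 57.9% and 53.5% of all genes were above background at E11, E12, E14, E16 and E18. Of 12 hindbrain and spinal cord genes, 4 were above background at E11, 5 at E12, 3 at E14, 2 at E16 and 1 at E18, and the summed normalised level was 8.60, 8.73, 8.46, 8.41 and 8.44 on the log2 scale. Olig2, Mnx1, Lbx1 and 4 others were below background throughout. Of 12 limb and trunk mesenchyme genes, 7, 7, 6, 5 and 5 were above background at those stages, with summed levels of 14.50, 14.45, 13.58, 13.61 and 13.27, and Tbx4, Tbx5, Lmx1b, Hand1 and Tcf21 were below background throughout. The share of limb and trunk genes above background, 58.3% at both E11 and E12, was near that of all genes. The limb and trunk sum was higher at E11 and E12 than at E16 and E18, as Hoxb3 was. That sum is nearly all Pitx1, also a jaw gene, with 14.39, 14.40, 13.47, 13.55 and 13.19 at E11, E12, E14, E16 and E18. Of the 7 measured genes of the list, 2 fell and 1 rose, against 2.63% and 6.25% of all genes tested. The median slope of the 7 was -0.215 per day. The gene that rose was Meox1, by 0.17 ± 0.04 log2 units per day (limma adjusted p = 0.0424). Higher at E11 and E12 than at E16 and E18 were also the sums of the jaw list (15.08, 15.08, 15.20, 13.96 and 13.95 at E11, E12, E14, E16 and E18) and of 11 red cell genes (16.29, 15.46, 15.54, 14.18 and 14.30). So were those of the hindbrain, cofactor, polycomb and trithorax, cartilage and tendon, and endothelial lists. Sums of dental epithelium, macrophage and leukocyte, neuron and cluster neighbour genes were lower at E11 and E12. The part of any list in the Hoxb3 values was not tested. Of 12 endothelial genes all were above background at every stage, against 49.9% of all genes, and none passed the trend test.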

How the data were processed

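Two-colour Agilent arrays compared molar germs of E11, E12, E16 and E18 (Cy5) with E14 (Cy3). Per the file headers, Agilent Feature Extraction 10.5.1.1 made the deposited intensity values (mean signal, median background) and the flags of each spot. Per the file headers, the deposited LogRatio and the value table hold log10 of Cy5 over Cy3. These columns agreed within 1% for 100% of spots, with column medians of 0. Probe positions are in mm7, per the file headers.

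The deposited intensities were turned into log2 ratios in R 4.3.3 (limma 3.58.1): normexp (offset 50), loess within arrays with control spots at weight 0, outlier spots (92 to 126 per array) left out, and spots of a probe averaged. The offset compresses ratios of dim genes. Mean signals in the text are the scanner's and include local background, so they show how near a probe lies to the background limit and do not rank genes. A gene took its probe with the highest mean signal. The test took genes whose probe passed the well-above-background flag in any Cy5 channel or in 2 or more Cy3 channels. Bounds are per-channel levels after Aquantile scaling, the dim group taken at the higher of its own signal and the lowest signal well above background. The trend is a linear model in embryonic day (lmFit, eBayes with an intensity trend, 2 residual degrees of freedom) with Benjamini-Hochberg adjustment over 17400 genes. It was tested on simulated data. With 1 array per stage, p-values measure scatter about a line, not biological spread. The number of arrays limits precision. Every Hox gene above background at any stage is named with its values, and those below are named without. Members and gene lists were chosen with earlier results of these data known. RefSeq names and promoters are from GRCm38.p6, and its coordinates are not mixed with mm7. Alternatives tried were other background, normalization, flag, filter and probe rules, slide as a block, and leaving out each array. Some items are not reported here.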

Additional observations from a re-analysis of the deposited data

Results flagged for a closer look

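One of the 4 E14 readings of Hoxb6 stood apart. Its Cy3 mean signal was 82.0 on the E12 array, against 104.8, 119 and 118 on the E11, E16 and E18 arrays, and the gap to the nearest other reading was 0.838 of the whole range of normalised log2 levels. Chance flags about 1 in 20 such groups of readings. The Hoxb6 ratio at E12 (-0.16) rests on that reading, and its part in the difference from the ratios at E11 (-0.51), E16 (-0.63) and E18 (-0.71) was not tested.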

How the results depend on the processing

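The number of Hox genes above background depended on the flag: with the weaker significance flag it was 15 at E11, 9 at E12, 14 at E14, 13 at E16 and 10 at E18, and the other rules for probes, names and E14 arrays gave the same counts as reported. That weaker flag was also met by 12, 6, 9 and 9 of 153 negative control spots in Cy5 at E11, E12, E16 and E18. With the scanner's LogRatio, and with the value table, 2, 1, 4 and 4 Hox genes were at least 2-fold from E14 at E11, E12, E16 and E18. Hoxb2, Hoxc6 and Hoxd8, which were near background, were among them. Median centring gave 1 at E12 and 0 at E16, and an offset of 10 gave 2 at E18. Hoxb3 was below E14 at E16 and E18 under each alternative, from -0.87 to -2.15 at E16 and from -1.60 to -2.88 at E18. Trend calls numbered 2 with LogRatio or the value table (Hoxb2 was added, 0.47 ± 0.10 per day, with E14 below background), 0 with slide as a block, and 0 to 1 with each array left out. Over all genes, trend calls were 1545, against 198 without E11, 329 without E12, 2389 without E16, 1998 without E18 and 0 with slide as a block. Slopes changed sign with slide as a block for Hoxa3 (0.052), Hoxb6 (0.038), Hoxc4 (0.0026) and Hoxd8 (-0.081), and without E11 for Hoxc6, whose slope ran from -0.027 to 0.013 with each array left out. None of these passed before or after, and the cause was not tested. No paired analysis was possible because each stage has 1 array. Most Hox probes lay near background, so their low levels and ratios were not measurable at this signal.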
